A study of Homo sapiens with 3 samples.

Results

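The genes that move and store zinc were followed in A549 cells, a human lung adenocarcinoma (LUAD) line, after transfection with either strand of pre-*miR-139*. They were chosen by name: *SLC39A1* to *SLC39A14*, *SLC30A1* to *SLC30A10*, *MTF1*, and the metallothioneins *MT1A*, *MT1B*, *MT1E*, *MT1F*, *MT1G*, *MT1H*, *MT1L*, *MT1M*, *MT1X*, *MT2A*, *MT3* and *MT4*. A probe was assigned to a gene through the RefSeq accession in the array's annotation. All 37 genes were found, on 44 of the 31104 probes that matched a RefSeq symbol and among 22439 such genes. The array held 16 probes for the 14 SLC39 genes, 13 probes for the 10 SLC30 genes, 1 probe for *MTF1* and 14 probes for the 12 metallothioneins. Each of the 44 probes was printed as a single spot.

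RNA from 3 cultures of A549 was hybridised to 3 arrays, 1 per condition. The mock culture received the transfection reagent without a precursor. The other 2 cultures received, at 10 nM, a precursor of *miR-139-5p* (the guide strand) or of *miR-139-3p* (the passenger strand). No transfection time is given in the labels. All 3 cultures share the cell line and the transfection reagent, and none received a control precursor. With 1 array per condition there was no replicate check, so every difference is given as a value without a test. Slide 1 carried the mock and *miR-139-5p* arrays, whereas slide 2 carried *miR-139-3p*, so slide and *miR-139-3p* transfection cannot be told apart. Both comparisons use the same mock array.

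Zinc crosses membranes through 2 families of carriers that work in opposite directions. SLC39 proteins (ZIP) bring zinc into the cytosol, from outside the cell or out of organelles, whereas SLC30 proteins (ZnT) take zinc from the cytosol into organelles or out of the cell. Metallothioneins are small cysteine-rich proteins that hold zinc, copper and cadmium in the cytosol. MTF1 is a zinc-sensing transcription factor that binds metal response elements in the promoters of metallothionein genes and of *SLC30A1*, and so links the zinc level of a cell to its storage and export.

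The mature sequences of the transfected strands are shown because their seeds differ, although both come from the same hairpin. The seed, bases 2 to 8, is in capitals, and sequences and positions are from RefSeq (GRCh38.p14), with both strands encoded on the minus strand of chromosome 11.
miR-139-3p, chr11:72615066-72615088: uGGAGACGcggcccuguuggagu
miR-139-5p, chr11:72615102-72615124: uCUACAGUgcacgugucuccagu
Each is 23 bases long, and 0 other mature miRNAs of the RefSeq table carried the seed of either strand. Transcript sequences were not used here, so the genes below were not searched for seed matches.

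Metal response elements were counted in promoters, taken as the 250 bases before and 50 after a gene's start, since they mark which of these genes carry MTF1's binding motif. The core was searched as TGCACNC or TGCGCNC on both strands. At least 1 match was present in 29.6% of 35116 promoters of all genes, and at least 3 matches in 2.30%. A promoter sequence was matched for 27 of the 37 genes. *SLC39A4*, *SLC39A14*, *SLC30A8*, *MT1A*, *MT1E*, *MT1F*, *MT1G*, *MT1L*, *MT1M* and *MT3* were not matched. All 5 metallothionein promoters held 3 or more matches, with 8 in *MT2A*, 8 in *MT1H*, 4 in *MT1X*, 3 in *MT1B* and 3 in *MT4*. Among the carriers, 5 of 9 SLC30 promoters and 2 of 12 SLC39 promoters held a match, and *SLC39A11* and *MTF1* held 0. *SLC30A2* had 3 matches, *SLC30A1* and *SLC30A3* had 2 each, and *SLC30A4*, *SLC30A6*, *SLC39A3* and *SLC39A6* had 1 each. The matches nearest to a shared position in 3 metallothionein promoters are printed with those of 2 zinc exporters, read along each gene's strand with the match in capitals.
MT2A, chr16:56608518-56608547, plus strand: gggcggggctttTGCACTCgtcccggctct
MT1X, chr16:56682405-56682434, plus strand: aggcggggcctcTGCGCCCggccctcttcc
MT1B, chr16:56651821-56651850, plus strand: gggcggggcctcTGCACCCcaccacctccc
SLC30A1, chr1:211579193-211579222, minus strand: aacgggggttccGAGTGCAaagcaaagttt
SLC30A2, chr1:26046180-26046209, minus strand: cccgcgggctttTGCACACgacgcgccgac
The match began at position -54 from the start in *MT2A* and at -53 in *MT1X*, *MT1B* and *MT1H*. In *SLC30A1* it began at -49, in the reverse orientation, and in *SLC30A2* further off, at -79. *MT4* had no match near this position, with its 3 at -209, -196 and -90. A match is a description of letters and not a measured binding site.

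**Figure D1:**
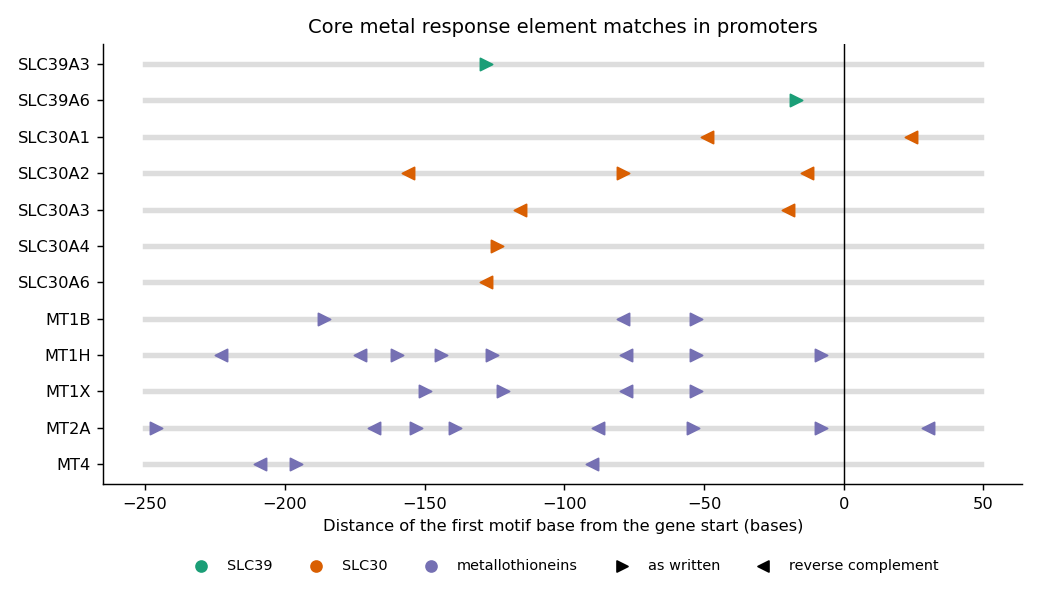
Positions of core metal response element matches in the 12 promoters that held at least 1, as distance in bases of the first motif base from the gene start. Grey bars are the 300-base windows, and arrowheads give the orientation relative to the gene. The metallothionein promoters held 3 to 8 matches each, the SLC30 promoters shown 1 to 3 and the SLC39 promoters shown 1.

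Arrays were scaled by their 75th percentile signal, which was 93.6 on mock, 88.9 for the guide strand and 81.0 for the passenger strand. The scanner software called 48.1% to 53.1% of 60901 spots well above background. None of the spots for the zinc genes was saturated or marked as an outlier. Probes printed in 10 spots varied by a median SD of 0.048 to 0.058 on the log2 scale within an array. Where a gene had several probes, their log2 fold changes varied by a median SD of 0.28 for *miR-139-3p* and 0.15 for the guide strand. These measure technical spread only, and the spread between cultures is unknown. Of 10 epithelial and A549 markers, 9 were well above background on all 3 arrays, with a summed signal of 217597 on mock, 177319 with *miR-139-5p* and 127452 with the passenger strand. A few very bright probes, such as *KRT18* and *AKR1B10*, carried that sum. With *miR-139-3p*, *KRT8* (-0.74), *KRT18* (-0.84), *AKR1B10* (-1.43) and *AKR1C1* (-0.72) were lower on the log2 scale. *EPCAM* was higher, at 0.97, and the others moved less, with *CDH1* at 0.36 and *KRT19* at 0.18. With *miR-139-5p*, *KRT8* (-0.85), *KRT18* (-0.77), *CDH1* (-0.54) and *KRT19* (-0.52) were lower, and the others moved less. Of 11 markers of leukocytes, endothelium, fibroblasts and alveolar type 2 cells, 5 had a probe well above background on all 3 arrays, and the list summed to 392 on mock, 452 with *miR-139-5p* and 162 with the passenger strand. On mock and with *miR-139-5p* most of that sum was *CD14*, a monocyte marker, at 292, 304 and 64.02 in that order. The fibroblast marker *COL1A1* was also well above background, at 40.1, 101 and 22.7, and *SFTPC*, of alveolar type 2 cells, at 17.3, 11.3 and 7.66. Other markers went the opposite way with *miR-139-3p*, with *PTPRC*, of leukocytes, at 10.3 on mock and 20.1, and the endothelial *CDH5* at 14.5 and 25.1. *COL3A1*, *DCN*, *LUM* and *PECAM1* were not well above background on any array. The part of these marker levels in the results was not tested.

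Of the 37 genes, 28 had a probe well above background on all 3 arrays. *SLC30A2* reached it only with *miR-139-3p*. The other 8, *SLC39A2*, *SLC39A12*, *SLC30A8*, *SLC30A10*, *MT1G*, *MT1H*, *MT1M* and *MT4*, were not well above background on any array, with signals of 0.960 to 4.64. Several of these are known from restricted tissues, such as *SLC30A8* in insulin granules of the pancreatic islet and *MT4* in stratified squamous epithelium. The dimmest probes still well above background gave signals between 4.32 and 5.12 on the 3 arrays. Signals of different probes are not comparable with each other, and signals in the text are given before scaling whereas fold changes are given after it.

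**Figure D2:**
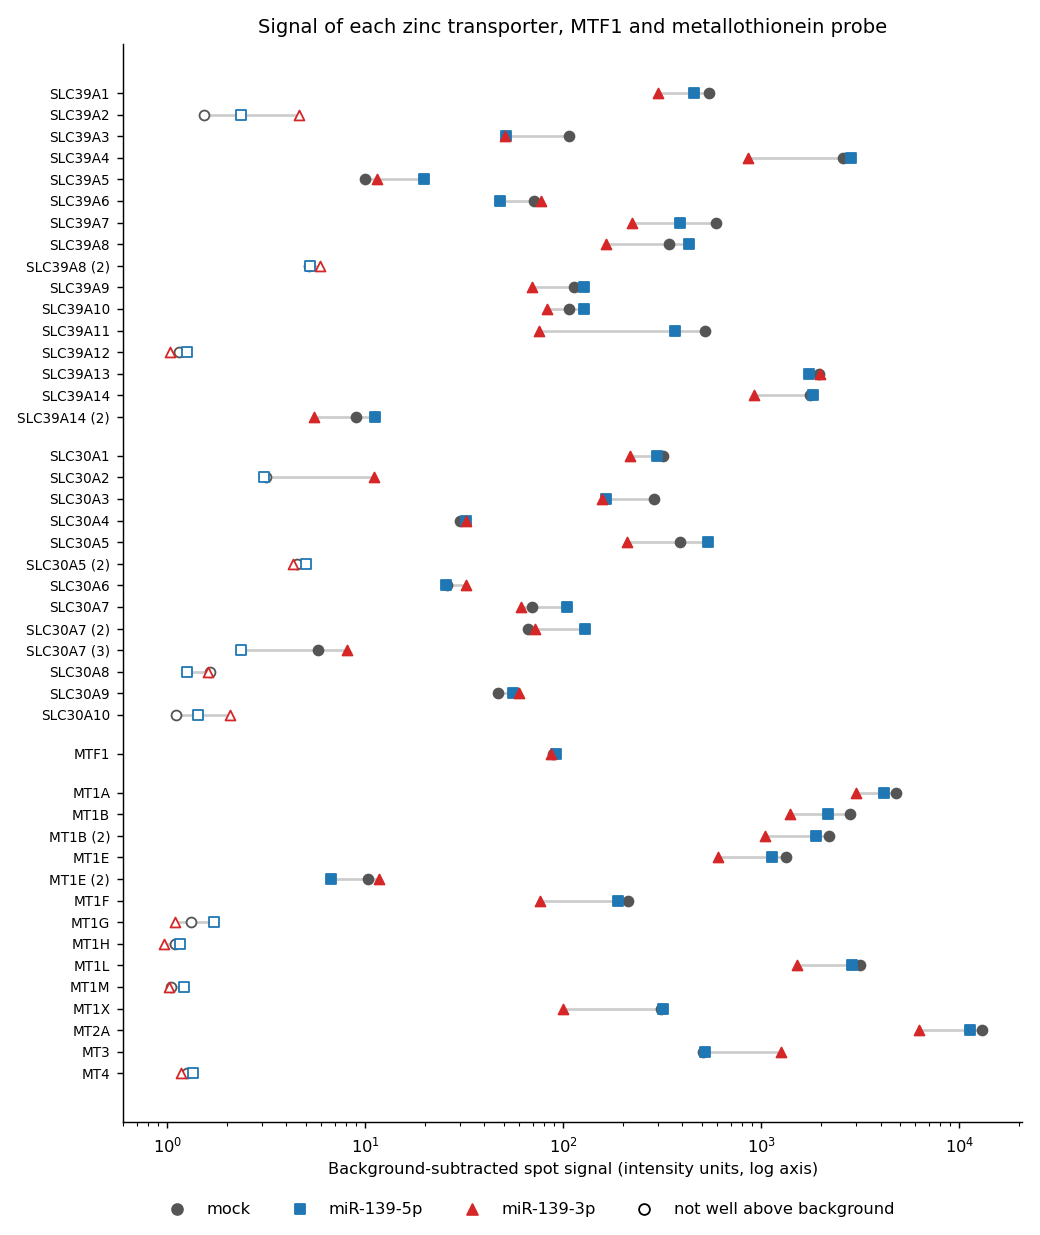
Background-subtracted signal (intensity units, log axis) of the 44 probes on the mock, guide strand and passenger strand arrays, before scaling. Open symbols were not well above background, and a number in brackets marks further probes of a gene. The *miR-139-3p* symbol of *SLC39A11* lies at 75.2, far left of its mock symbol at 522, and that of *MT3* lies at 1264, right of its mock symbol at 507.

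With *miR-139-3p*, 15 of the 29 genes with a value were at least 0.5 lower than mock on the log2 scale and 4 were at least 0.5 higher, 1 of these by a bound. Over 15572 RefSeq genes with a value, 27.9% were lower and 26.5% were higher by this threshold. The median log2 fold change was -0.51 over the zinc genes and -0.05 over all genes. Bright probes were lower more often in this comparison, so the zinc genes were also read against bright genes only. Signals were not matched within that range, in which the zinc genes reached 12954 on mock, for *MT2A*. Among 8992 RefSeq genes with a mock signal above the 75th percentile, 36.2% were lower and 13.2% were higher, with a median of -0.27. Of the 21 zinc genes in that range, 15 were lower and 1 was higher, with a median of -0.68. The 15 include 5 metallothioneins, whose probes may bind more than 1 of their mRNAs, so they may not be separate measurements. In bulk RNA, less of a transcript per cell and fewer cells that carry it cannot be told apart.

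With *miR-139-5p*, 3 of the 28 genes with a value were at least 0.5 lower than mock and 3 were at least 0.5 higher. Over 15018 RefSeq genes these shares were 12.3% and 10.7%, so the zinc genes were near the background. Above the 75th percentile of mock signal the shares were 9.82% and 7.81% over 9093 genes, and 3 of 21 zinc genes were lower and 1 was higher. The median log2 fold change of the zinc genes was 0.02, and that of all genes was -0.01.

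**Figure D3:**
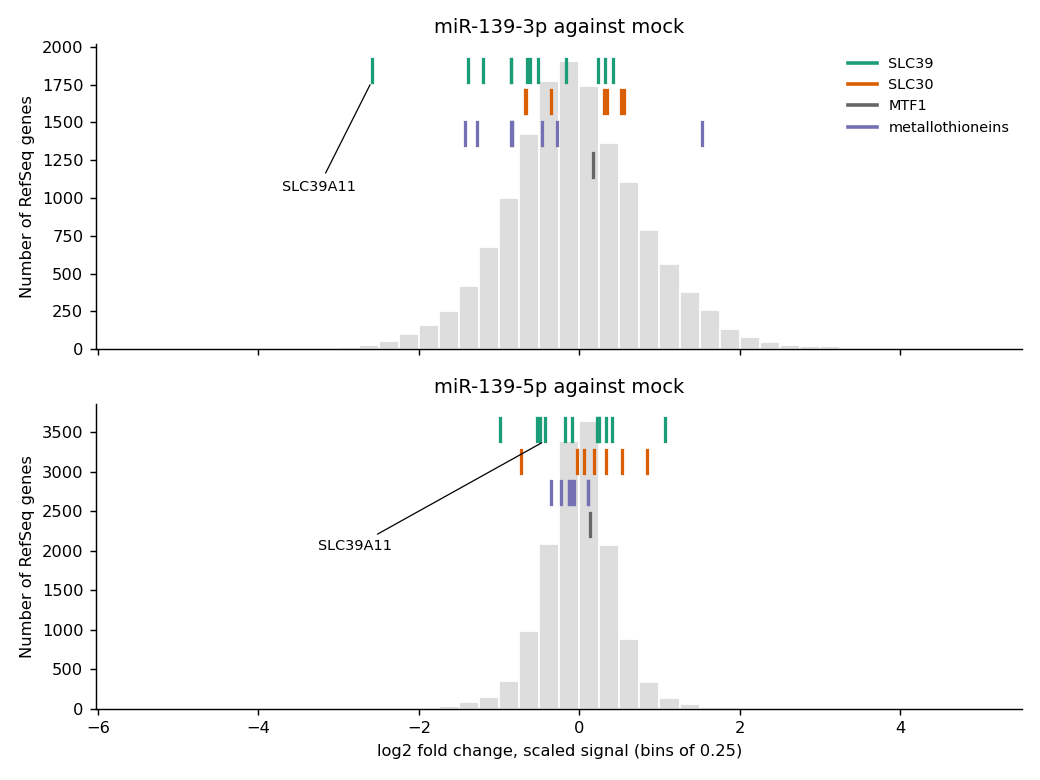
Log2 fold changes of RefSeq genes measured on both arrays (grey bars, bins of 0.25) against mock, with 14376 genes for *miR-139-3p* and 14311 for the guide strand. Coloured ticks are the zinc genes by family. The *SLC39A11* tick lies at -2.59 with *miR-139-3p*, in the lower tail, and at -0.43 with *miR-139-5p*.

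*SLC39A11* encodes ZIP11, a zinc carrier of the Golgi and nucleus that stands apart from the rest of the ZIP family in sequence. Its signal was 522 on the mock array, 368 with *miR-139-5p* and 75.2 with the passenger strand. The *miR-139-3p* array was therefore low, and the *miR-139-5p* array lay between it and mock. After scaling, *SLC39A11* with *miR-139-3p* was at 16.6% of mock, 6.01-fold lower or -2.59 as a log2 fold change. The scanner software's error on that difference was 0.21, which covers 1 spot on each array and not the variation between cultures. With *miR-139-5p* it was at 74.2% of mock, a log2 fold change of -0.43 with a scanner error of 0.20. The log2 difference of *miR-139-3p* minus *miR-139-5p* was -2.16.

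Among 14376 RefSeq genes measured on both arrays, 59 genes (0.41%) had a lower log2 fold change with *miR-139-3p* than *SLC39A11*. With *miR-139-5p*, 2089 of 14311 genes (14.6%) did. *SLC39A11* was the lowest of the 29 zinc genes with *miR-139-3p*, with *MT1X* next at -1.43. The study had picked *SLC39A11* as a putative *miR-139-3p* target partly on this comparison, so its low value is a description and not independent evidence.

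The other SLC39 genes were also mostly lower with *miR-139-3p*, though by less. Of the 13 genes, 11 had a value, and 7 of these were lower, 0 were higher and 4 lay within the threshold, beside 27.9% lower and 26.5% higher over all RefSeq genes. Their median log2 fold change was -0.61, against -0.05 over all genes and -0.27 over bright genes, a range that 2 of the 11, *SLC39A5* and *SLC39A6*, did not reach on mock. Without a filter on dim probes, *SLC39A2* and *SLC39A12* were added and a dim probe of *SLC39A8* was averaged in. The median was then -0.23, which is the value of *SLC39A8* itself. With *miR-139-5p* their median was 0.22, or 0.030 with normexp background correction, with 2 lower and 1 higher beside 12.3% and 10.7% over all genes. *SLC39A4* (ZIP4), the zinc importer of the gut that is mutated in acrodermatitis enteropathica, gave 2582 on mock, 2853 with *miR-139-5p* and 853 with the passenger strand. Only its *miR-139-3p* array was low, at a log2 fold change of -1.39 or 2.62-fold below mock, while *miR-139-5p* gave 0.22. *SLC39A7* (ZIP7), which releases zinc from the endoplasmic reticulum, gave 593 on mock, 390 with *miR-139-5p* and 224 with the passenger strand. Both transfected arrays were below mock, at -1.20 with *miR-139-3p* and -0.53 with the guide strand.

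*SLC39A3* (ZIP3), a plasma membrane importer, read 107 on mock, 51.2 with *miR-139-5p* and 51.0 with the passenger strand. It was low on both transfected arrays to a like degree, at -0.98 with *miR-139-5p* and -0.86 with the passenger strand, and was the lowest zinc gene in the *miR-139-5p* comparison except with normexp background correction, where *SLC30A3* was at -0.66 and *SLC39A3* at -0.61. *SLC39A8* (ZIP8), which also carries manganese and cadmium, read 342 on mock, 433 with *miR-139-5p* and 164 with the passenger strand. Its 2 transfected arrays lay on opposite sides of mock, at -0.85 with *miR-139-3p* and 0.41 with the guide strand, and its other probe was not well above background. With that probe included, the *miR-139-3p* value was -0.23 and under the threshold. *SLC39A14* (ZIP14), a carrier of zinc, manganese and iron not bound to transferrin, had a bright probe at 1757, 1815 and 917 and a dim probe at 9.01, 11.2 and 5.54 on the mock, guide strand and passenger strand arrays. Both probes were lowest with *miR-139-3p*, and their mean log2 fold change was -0.61 with an SD between probes of 0.17.

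*SLC39A1* (ZIP1), a widely expressed importer of the plasma membrane, read 545 on mock, 459 with *miR-139-5p* and 302 with the passenger strand. Its log2 fold changes were -0.65 with *miR-139-3p* and -0.17 with the guide strand. *SLC39A9* (ZIP9), a Golgi carrier, read 114, 127 and 69.1 in the same order, and its -0.51 with *miR-139-3p* was just past the threshold, and inside it with normexp, at -0.27. *SLC39A5* (ZIP5) was dim on every array, at 9.96 on mock, 19.9 with *miR-139-5p* and 11.5 with the passenger strand. At 1.07 on the log2 scale with *miR-139-5p*, its fold change was the highest of the zinc genes in that comparison. With normexp background correction it was at 0.26, and *SLC30A7* was highest at 0.50. With *miR-139-3p* it was at 0.42, and at -0.03 after quantile normalization. The remaining SLC39 genes were within the threshold in both comparisons under the main scaling. With *miR-139-5p*, *SLC39A6* was past it without scaling, at -0.56, and with the percentile over probes detected on all arrays, at -0.51. *SLC39A6* (ZIP6) was at 0.32 with *miR-139-3p* and -0.49 with the guide strand, its partner *SLC39A10* (ZIP10) at -0.16 and 0.33, and *SLC39A13* (ZIP13), a carrier of intracellular vesicles, at 0.23 and -0.10.

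**Figure D4:**
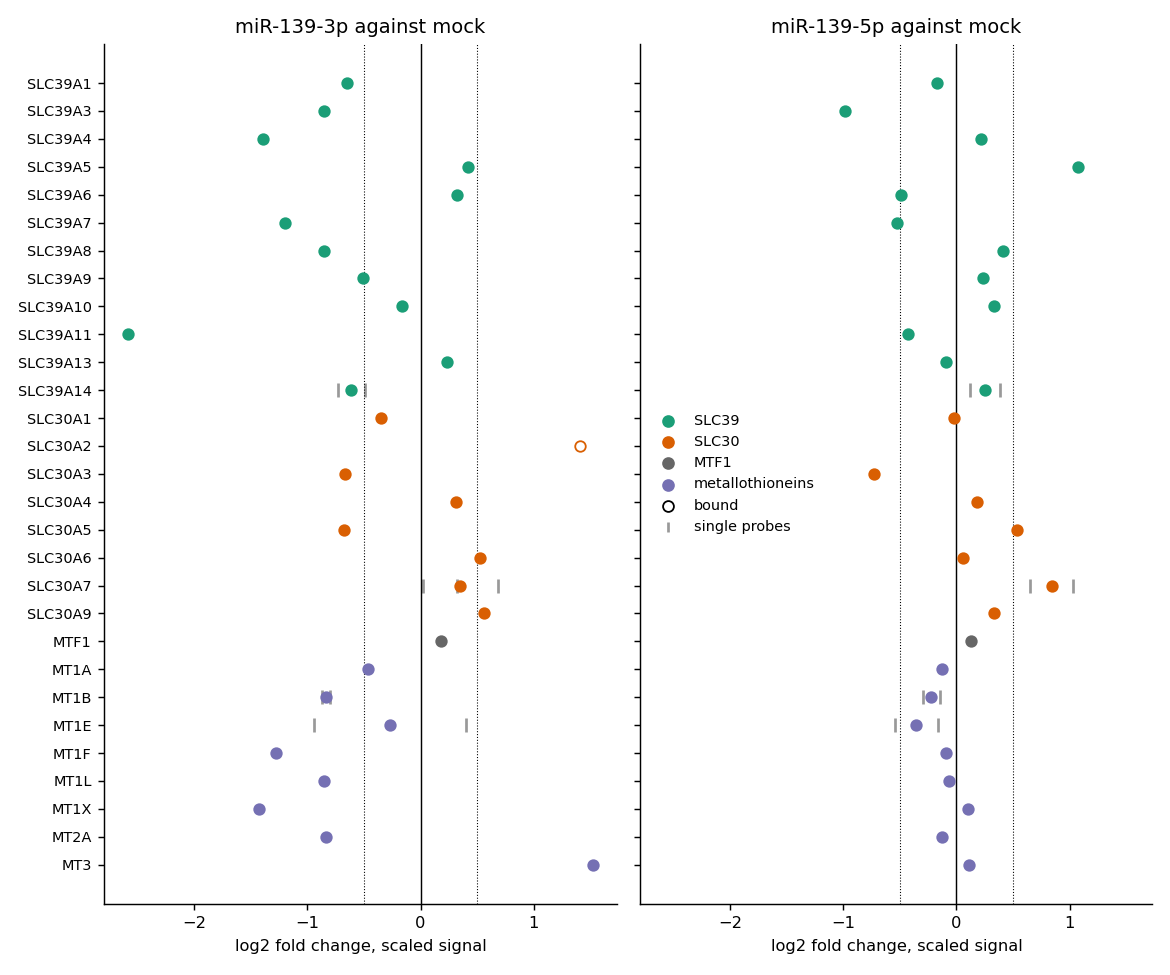
Log2 fold change of scaled signal against mock for the 29 zinc genes with a value, for *miR-139-3p* (left) and *miR-139-5p* (right). Filled circles are means over a gene's probes, grey bars its single probes, and the open circle a bound, with dotted lines at 0.5 in either direction. With *miR-139-3p*, 15 circles lie left of the lower line and 4 right of the upper line, against 3 and 3 with *miR-139-5p*.

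The SLC30 genes, which take zinc out of the cytosol, were on both sides of mock. With *miR-139-3p*, 8 of 10 had a value, 2 were lower, 3 were higher and 3 lay within the threshold, beside 27.9% lower and 26.5% higher over all RefSeq genes. Their median was 0.33 on the log2 scale, with a range of 0.10 to 0.47 over the processing alternatives. The 3 SLC30 genes with a mock signal above the 75th percentile, *SLC30A1*, *SLC30A3* and *SLC30A5*, were all below mock, and *SLC30A4*, *SLC30A6*, *SLC30A7* and *SLC30A9*, above mock, were all dimmer. *SLC30A2* was measured only with *miR-139-3p*, so it could have a value only by being higher there. Family and probe brightness therefore cannot be told apart in the contrast with the SLC39 genes. With *miR-139-5p*, 7 had a value, 1 was lower and 2 were higher, with a median of 0.18, beside 12.3% and 10.7% over all genes. The higher values of *SLC30A6* and *SLC30A9* with *miR-139-3p* were under the threshold with normexp, quantile normalization, no scaling, spike-in scaling and the deposited values, at 0.22 to 0.33 and 0.35 to 0.47. *SLC30A1* (ZnT1), the main exporter of the plasma membrane, read 319 on mock, 298 with *miR-139-5p* and 217 with the passenger strand. It was within the threshold, at -0.35 with *miR-139-3p* and -0.02 with the guide strand. With *miR-139-3p* it was past the threshold without scaling, at -0.56, and with spike-in scaling, at -0.55. *SLC30A3* (ZnT3), best known for loading zinc into synaptic vesicles, read 287 on mock, 165 with *miR-139-5p* and 157 with the passenger strand. It was low on both transfected arrays, at -0.73 with *miR-139-5p* and -0.66 with the passenger strand.

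The ZnT5, ZnT6 and ZnT7 proteins supply zinc to enzymes of the secretory pathway, ZnT5 and ZnT6 as a heterodimer. *SLC30A5* read 390 on mock, 536 with *miR-139-5p* and 211 with the passenger strand, on the probe that was well above background. It was the zinc gene that was past the threshold in opposite directions, at -0.68 with *miR-139-3p* and 0.53 with the guide strand. The latter was under the threshold without scaling, at 0.46, and with normexp, at 0.42. Without a filter on dim probes both were, at -0.27 and 0.38. Its partner *SLC30A6* read 25.9, 25.5 and 32.2, for 0.53 with *miR-139-3p* and 0.06 with the guide strand. *SLC30A7* had probes at 69.5, 104 and 61.0 and at 66.6, 129 and 72.2 on the mock, guide strand and passenger strand arrays. Both were brightest with *miR-139-5p*, with a mean log2 fold change of 0.84 and an SD between probes of 0.26. A dimmer probe went the other way with *miR-139-5p*, from 5.78 on mock to 2.36, which was not well above background. The mean was 0.16 with that probe and 0.50 with normexp, both under the threshold. With *miR-139-3p* the dimmer probe was measured, at 8.07, and the mean over the 3 probes was 0.34 with an SD of 0.33.

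*SLC30A9* (ZnT9), a mitochondrial zinc carrier, read 46.8 on mock, 56.0 with *miR-139-5p* and 59.8 with the passenger strand. Its log2 fold changes were 0.56 with *miR-139-3p* and 0.33 with the guide strand. *SLC30A2* (ZnT2), which fills secretory vesicles of the mammary gland, read 3.16 on mock, 3.09 with *miR-139-5p* and 11.1 with the passenger strand. Only the last was well above background, so under the scaling used here it was at least 2.65-fold higher with *miR-139-3p* than on mock, a log2 bound of 1.41 from a signal near the floor. The bound was 0.90 with quantile normalization and 0.89 with the deposited values, and at 0.25 with normexp it was no longer past the threshold. *SLC30A4* (ZnT4), a vesicle carrier, stayed within the threshold at 0.31 with *miR-139-3p* and 0.18 with the guide strand.

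*MTF1* differed little between arrays, at 88.5 on mock, 92.2 with *miR-139-5p* and 86.6 with the passenger strand. Its log2 fold changes were 0.18 with *miR-139-3p* and 0.13 with the guide strand, and the former was -0.03 without scaling.

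With *miR-139-3p*, 8 of the 12 metallothioneins had a value, 5 were lower and 1, *MT3*, was higher. Over bright genes 36.2% were lower and 13.2% higher, and over all genes 27.9% and 26.5%. Of the 8, 7 lay below 0, as did 5907 of 8992 bright genes and 8154 of 15572 genes in all. The median of the 8 was -0.84 on the log2 scale, or -0.37 over all metallothioneins without a filter on dim probes. The 7 other than *MT3*, set apart after its value was seen, also had a median of -0.84. The 7 lay below 0 under each processing alternative that was run. With *miR-139-5p* the same 7 genes had a median of -0.12 and 0 were past the threshold. The mRNAs of the MT1 genes are nearly identical, and probes for them may bind more than 1 of them. Probe sequences were not used here, so the values of the MT1 genes and *MT2A* are uncertain as separate measurements. *MT2A*, the most widely expressed metallothionein, read 12954 on mock, 11291 with *miR-139-5p* and 6270 with the passenger strand. It was low on the *miR-139-3p* array, at a log2 fold change of -0.84 or 55.9% of mock, and at -0.12 with *miR-139-5p*.

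*MT1X* read 311 on mock, 317 with *miR-139-5p* and 99.9 with the passenger strand, and was the lowest metallothionein, 2.69-fold below mock at -1.43. *MT1F* read 213, 190 and 76.1 in the same order, 2.43-fold below mock with *miR-139-3p* at -1.28. In both genes only the *miR-139-3p* array was low, with *miR-139-5p* at 0.10 for *MT1X* and -0.10 for *MT1F*. *MT1B* had probes at 2196, 1881 and 1039 and at 2804, 2166 and 1394 on the mock, guide strand and passenger strand arrays. Its mean was -0.84 with *miR-139-3p* and -0.22 with the guide strand. *MT1L*, a transcribed pseudogene, read 3157, 2859 and 1511 in the same order, for -0.85 and -0.07. *MT1A* read 4789, 4164 and 2996 and was just inside the threshold, at -0.47 with *miR-139-3p*. It was past the threshold without scaling, at -0.68, and with spike-in scaling, at -0.67.

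The probes of *MT1E* disagreed. Its bright probe read 1341 on mock, 1134 with *miR-139-5p* and 603 with the passenger strand, for -0.94 with *miR-139-3p*. Its dim probe read 10.3, 6.73 and 11.8 in the same order, for 0.40. The mean of -0.27 therefore has an SD between probes of 0.95.

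*MT3*, a metallothionein best known from brain, where it was described as a growth inhibitory factor, went the other way. It read 507 on mock, 519 with *miR-139-5p* and 1264 with the passenger strand. Only the *miR-139-3p* array was high, at 2.88-fold above mock or a log2 fold change of 1.53, whereas *miR-139-5p* gave 0.11. Of 14376 measured RefSeq genes, 560 (3.90%) were higher with *miR-139-3p*. *MT3* was the highest of the 29 zinc genes in that comparison, measured on 1 probe.

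The *miR-139-3p* values of *SLC39A11* and *MT3* and the family medians were recomputed under other scalings, filters and probe choices. *SLC39A11* ranged from -2.80 without scaling to -2.08 with normexp background correction, and it was the lowest zinc gene in each. Both genes have 1 probe in 1 spot, so filters, probe choices and outlier handling could not change their values. Scaling factors shift all genes of an array alike and cannot change a rank. Only normexp, quantile normalization and the deposited values could move either gene by more than such a shared shift. *MT3* ranged from 1.31 to 1.74, and was exceeded only by *SLC30A2*, at 2.02, when dim probes were not filtered out.

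**Figure D5:**
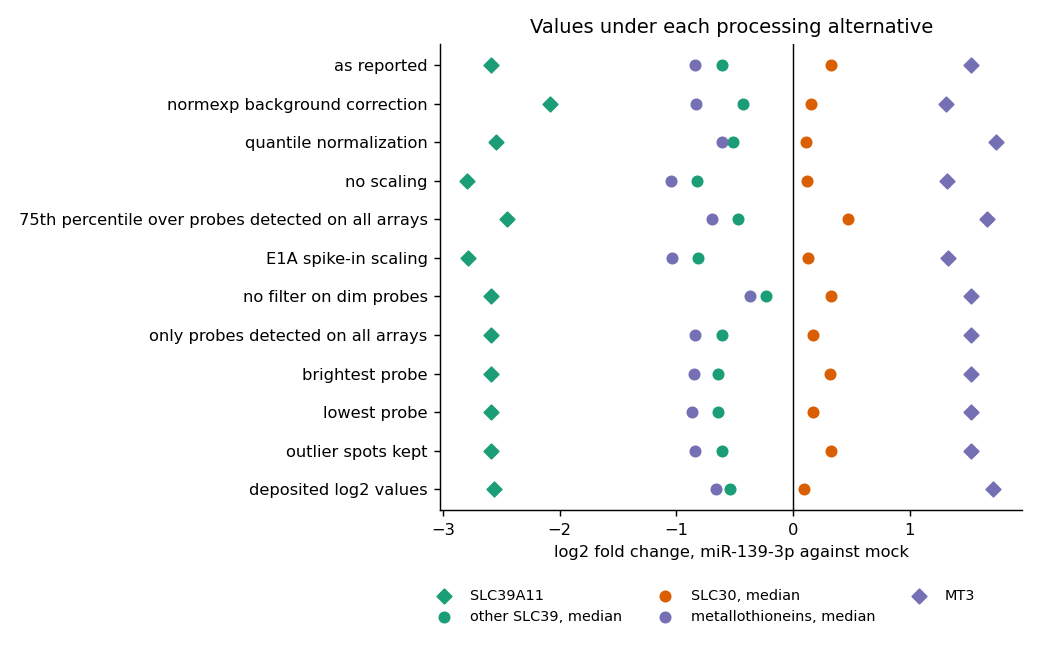
Log2 fold change with *miR-139-3p* against mock of *SLC39A11* and *MT3* (diamonds) and medians of the other SLC39 genes, the SLC30 genes and the metallothioneins (circles) as reported and under each processing alternative. *SLC39A11* stays between -2.80 and -2.08 in every row, left of the family medians.

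Of the other genes of the zinc, copper and iron pathways, 26 were listed from general knowledge. With *miR-139-3p*, 25 had a value, 7 were lower and 6 were higher, for a log2 median of -0.17, near the background of 27.9% lower and 26.5% higher. *HEPH*, 1 of the 6, was a bound measured only with *miR-139-3p*, so it could have a value only by being higher there. With *miR-139-5p*, 24 had a value, 3 were lower and 4 were higher, with a median of 0.11, beside a background of 12.3% and 10.7%. *CP* (ceruloplasmin, a copper-carrying ferroxidase) was lowest with *miR-139-3p*, at -1.12, and *TRPM7*, a channel for zinc and magnesium, was highest, at 1.23. The study had also picked *CP* as a putative *miR-139-3p* target partly on this comparison, so its low value is a description and not independent evidence. *ZNF658*, a zinc finger protein that represses genes of zinc homeostasis, was at 0.90 with *miR-139-3p* and 0.30 with the guide strand. *HMOX1*, the enzyme that breaks down haem, read 4761 on mock, 677 with *miR-139-5p* and 5052 with the passenger strand. Only its *miR-139-5p* array was low, at -2.74, the lowest value of the list in that comparison. *SOD1*, the copper and zinc superoxide dismutase, read 15000.5 on mock, 7084 with *miR-139-5p* and 9819 with the passenger strand, at -1.01 with *miR-139-5p* and -0.40 with the passenger strand.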

How the data were processed

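RNA of 3 A549 cultures was labelled with Cy3 and hybridised to 1-colour Agilent arrays, 1 per condition. The deposited files hold the intensity of each spot as given by Agilent Feature Extraction 12.1.1.1, background-subtracted, with its error. A further deposited table holds log2 values per probe, with scale and normalization not given in the sources used here. Its median was 2.21 on every array, and its values differed from quantile-normalized scanner log2 intensity by a median of 0.004 to 0.006. Log2 intensity was centred on each array's 75th percentile over non-control spots, outlier spots were left out and spots of a probe were averaged. A gene's log2 fold change averaged those of its probes that both arrays measured well above background. Where only 1 array measured it, a bound was taken against the higher of the dim signal and the lowest signal well above background. The threshold was 0.5. Symbols came from RefSeq accessions, since the array design was built on hg19 and the symbol table on GRCh38.p14. Metallothioneins outside the chosen names, *MT1DP*, *MT1HL1* and *MT1IP*, were kept apart. A marker of the cell type list is not reported here. Genes past the threshold, and *SLC39A11*, are given with their signal on each array. The genes, lists and threshold were chosen with earlier results of these data known. Calculations used Python 3.11.15, pandas 2.3.3 and limma 3.58.1 in R 4.3.3, and were tested on simulated data. The 12 alternatives were other background correction (normexp, offset 50), scaling, filters, probe choices, the deposited table and a threshold of 1. The number of arrays limits the precision.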

Additional observations from a re-analysis of the deposited data

How the results depend on the processing

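No paired analysis was possible because each condition had 1 array. With a threshold of 1, 5 zinc genes were lower and 2 were higher with *miR-139-3p*, in place of 15 and 4, and 0 were lower and 1 was higher with *miR-139-5p*, in place of 3 and 3. With normexp background correction, 1 was higher with *miR-139-3p* and 0 with the guide strand, *SLC39A11* was at -2.08 with *miR-139-3p*, and the median of the other SLC39 genes with *miR-139-5p* was 0.030, in place of 0.22. With quantile normalization, no scaling, spike-in scaling or the deposited log2 values, 2 genes were higher with *miR-139-3p*. Without scaling and with spike-in scaling, 17 were lower with *miR-139-3p*, with *SLC30A1* and *MT1A* past the threshold there. Without scaling, 5 were lower with *miR-139-5p*, with *SLC39A6* and *SLC39A11* past the threshold there. Without a filter on dim probes, genes not measured above background were added and dim probes of measured genes were averaged in. The medians with *miR-139-3p* were then -0.23 for the other SLC39 genes, the value of *SLC39A8* itself, and -0.37 for the metallothioneins. Of 604 values of single genes, 576 moved by less than the technical spread and 28 moved by more. Many could not move by more. No spot of the zinc genes was an outlier, and 31 of the 37 genes had 1 probe, so no probe could be chosen. No scaling, spike-in scaling and the other percentile shifted all genes of a comparison alike, by less than that spread. The count is therefore not a measure of stability. The sign changed in 9 of the 604, for 7 pairs of gene and comparison, 0 of which were past the threshold as reported. With *miR-139-3p*, the lower values of *SLC39A1* (-0.47 with quantile normalization), *SLC39A14* (-0.43 with normexp), *SLC39A8* (-0.23) and *SLC30A5* (-0.27, both without a filter on dim probes) came under the threshold. With *miR-139-5p* so did *SLC39A7* (-0.41 with spike-in scaling) and *SLC30A7* (0.16 without a filter). Among all RefSeq genes called, 48.8% were higher with *miR-139-3p*, against 34.2% without scaling, 34.6% with spike-in scaling, 34.6% with normexp and 58.7% with the percentile over probes detected on all arrays. Relative to the main scaling, the median of all genes moved by -0.21 without scaling, -0.20 with spike-in scaling and 0.14 with that percentile. With *miR-139-5p*, 46.6% were higher, against 67.0% with spike-in scaling and 33.9% without scaling. The numbers of RefSeq genes lower and higher were 4339 and 4129 with *miR-139-3p* and 1847 and 1609 with *miR-139-5p*, against 2933 and 1552 and 630 and 517 with normexp, and 1842 and 1921 and 357 and 288 with a threshold of 1. The causes were not tested. With 1 array per condition, the variation between cultures was not measured, and most genes rest on 1 probe in 1 spot.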

Other observations

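Genes beside the zinc genes on their chromosomes were read for comparison. Next to *SLC39A11*, *SOX9*, a developmental transcription factor, read 49.5 on mock, 101 with *miR-139-5p* and 21.6 with the passenger strand, a log2 fold change of -0.99 for the latter, and *KCNJ2*, a potassium channel gene, was at -0.78 with *miR-139-3p* and -0.42 with the guide strand. On the other side, *SSTR2*, a somatostatin receptor gene, was at -0.04 and 1.40, and *COG1*, a Golgi tethering subunit gene, at 0.05 and 0.23. None of these 4 was as low as *SLC39A11* with *miR-139-3p*. Beside the metallothionein cluster, *NUP93*, a nuclear pore gene, was at -0.62 with *miR-139-3p*, *BBS2*, a ciliary gene, at -0.19 and *OGFOD1* at -0.11, and *SLC12A3* was not well above background.

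*MT1HL1*, a metallothionein-like gene outside the chosen names, read 2664 on mock, 2222 with *miR-139-5p* and 837 with the passenger strand. Its log2 fold changes were -1.46 with *miR-139-3p* and -0.19 with the guide strand. The first lay just below that of *MT1X*, at -1.43, the lowest of the chosen metallothioneins.

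Values of iron genes of the list are given next, chosen after they were seen. *TFRC*, the transferrin receptor, read 2008 on mock, 2416 with *miR-139-5p* and 948 with the passenger strand, for -0.87 with *miR-139-3p* and 0.34 with the guide strand. *SLC40A1*, the iron exporter ferroportin, read 147, 297 and 113 in the same order, for -0.17 and 1.09. *STEAP3*, an endosomal ferrireductase, was at -1.08 with *miR-139-3p* and -0.19 with the guide strand. *SLC11A2*, an iron importer, was at 0.83 and 0.77. The iron-responsive regulators *ACO1* and *IREB2* were at -0.31 and -0.02 with *miR-139-3p*, and the ferritin genes *FTH1* and *FTL* at 0.71 and -0.73. The difference between the strands was not tested.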
